A study of Homo sapiens with 36 samples.

Results

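The G2 and mitosis genes described here are 44 genes, named by what their products do in the G2 phase and in mitosis, out of the 62757 genes listed in each count table. Their symbols were matched to the tables with no rule on measured values, and all 44 were found. They fall into 10 roles: the CDK1-cyclin engine and its switches, mitotic kinases, partners of the chromosomal passenger complex, the spindle checkpoint, the anaphase and ubiquitin ligase side, kinetochore and centromere, kinesins, spindle microtubules and midzone, chromosome and nuclear structure, and transcription factors. Of the 44, 42 had a mean of at least 64 raw counts in at least 1 group and were tested among 12356 genes. The other two, PRC1 and NUSAP1, stayed at or below 2.17 CPM (counts over the library total, on the usual CPM scale, with TMM factors) in every library. Other annotated genes overlapped 61.85% of the exonic bases of PRC1 and 86.8% of those of NUSAP1, and a read that falls on several genes is not counted for any of them.

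Entry into mitosis is driven by the kinase CDK1 bound to a B-type cyclin. CDC25 phosphatases switch the complex on, and the anaphase-promoting complex with its activator CDC20 ends its activity by marking the cyclins for degradation. Many genes of this programme share promoter elements, a CCAAT box and the cell cycle genes homology region (CHR). Through the CHR the MuvB core recruits B-MYB and FOXM1 in G2. Together with the pocket proteins p107 and p130, MuvB forms the repressive DREAM complex. After DNA damage p53 induces the CDK inhibitor p21 (CDKN1A), which favours DREAM, and this group of genes is known as a late readout of that route. Oxaliplatin (OXPT) is a platinum drug that crosslinks DNA.

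PolyA RNA was sequenced from HCT-116, a colorectal cancer line with an intact p53 gene, either wild type (WT) or lacking the ubiquitin ligase subunit FBXW7 (FBXW7-/-, KO). Cells were transfected for 48 h with esiRNA pools, and OXPT at 50 µM was present, where used, for the last 24 h. The KO cells received a control pool (esiCT), a pool against the deacetylase HDAC4 (esiHDAC4), or #11, a PROTAC degrader given together with esiCT. The study asked how loss of FBXW7 and of HDAC4 changes the answer of colorectal cancer cells to OXPT. The 24 libraries used form 8 groups of 3: WT untreated (UNT) and OXPT, and UNT and OXPT for each of KO esiCT, KO esiHDAC4 and KO #11. The dose of #11 is given as 1 µM in the treatment entry and as 10 µM in the description. The 6 WT libraries carry siCT in their titles and esiHDAC4 in the treatment entry, so WT here means WT cells with an esiRNA that the labels leave unresolved, and the KO esiCT against WT comparisons carry that difference as well. A further 12 WT libraries have entries that give opposite OXPT states and were kept out of every comparison. The KO cells are a single line from a supplier, and although the article speaks in general of independent experiments behind its figures, neither the labels nor its RNA-seq methods say whether the libraries of a group come from separate cultures. The p-values measure the spread between these libraries, which may be technical.

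The unstranded counts came to 10725966 to 20527222 per library (median 14510758), and 7.74% to 22.3% of reads were unmapped. The highest share was that of library number 3 of KO esiCT OXPT, against 9.46% and 9.74% in its numbers 1 and 2. Number 3 also had the highest share of its group in WT UNT (13.8%), WT OXPT (11.9%), KO esiHDAC4 OXPT (13.4%) and KO #11 OXPT (10.3%). In the untreated KO groups it did not. FBXW7 was at 16.9 ± 1.35 CPM (SD, n = 3) in KO esiCT UNT and 21.1 ± 3.60 CPM in WT UNT, and counts over the whole gene do not examine the edited bases. HDAC4 was at 10.9 ± 3.48 CPM in KO esiHDAC4 UNT against 19.1 ± 5.46 in KO esiCT UNT, and at 3.88 ± 0.480 against 6.50 ± 0.914 with OXPT. In WT it was at 22.0 ± 3.45 CPM untreated and 8.98 ± 0.897 with OXPT. Both WT values were nearer to those of KO esiCT than to those of KO esiHDAC4. Which pool the WT cells received was not tested further. #11 acts on the protein, and the HDAC4 transcript was at 23.5 ± 2.97 CPM in KO #11 UNT. Of 10 epithelial markers 6 were tested, with a summed level of 5137 to 21603 CPM over the libraries, and of 13 markers of blood, vessel and stromal cells 1 was tested, with a summed level of 27.5 to 78.6 CPM.

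Library number 3 stood apart from numbers 1 and 2 for many of these genes, and by transcript length. In WT UNT the number 3 library lay more than 2 log2 units below the mean of the other two for 6 of the 42 members, in WT OXPT for 10, in KO esiCT OXPT for 11 and in KO esiHDAC4 OXPT for 9. MKI67 and DLGAP5 were among them in all 4 of these groups. For the 21 members with a canonical transcript above 2928 bases, the number 3 library of KO esiCT OXPT lay at a median of -1.88 log2 units from the other two, against -0.30 for the 21 at or below that length. In WT OXPT these medians were -1.49 and 0.31, and in KO esiHDAC4 OXPT they were -1.82 and -0.20. Across the 42 members the Spearman correlation of this deviation with transcript length was -0.65 in WT UNT, -0.50 in WT OXPT, -0.65 in KO esiCT OXPT and -0.60 in KO esiHDAC4 OXPT, while over all 12350 tested genes with a known length it was -0.52, -0.39, -0.49 and -0.46. In KO esiCT UNT, the reference group for #11, it was -0.57 (all genes -0.21), with medians of -0.97 for the longer and -0.02 for the shorter members, and in KO esiHDAC4 UNT it was -0.58 (all genes -0.23), with medians of -0.50 and -0.09. These points share a library and a base composition, since the deviation also went with GC content. In the #11 groups the members went the other way (0.46 in UNT) or showed little relation (0.07 in OXPT). The part that RNA quality or transcript length has in the results below was not tested, and counts of calls are given with every library and then without the number 3 libraries.

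**Figure D1:**
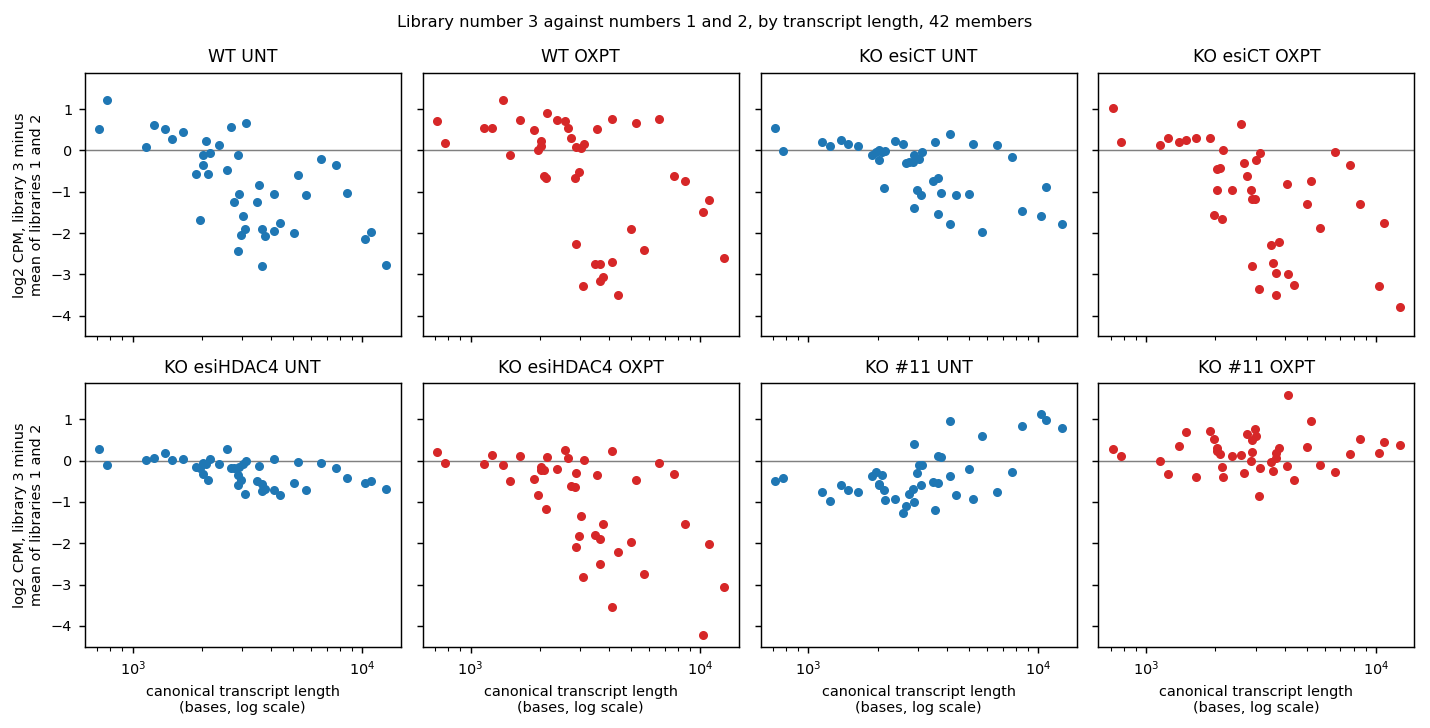
Each point is 1 of the 42 tested members. The x axis is the length of its canonical transcript in bases on a log scale and the y axis is the log2 CPM of library number 3 minus the mean of libraries 1 and 2, in 1 panel per group (blue untreated, red OXPT). In the 6 groups without #11 the longer members sit lower than the shorter ones, least so in KO esiHDAC4 UNT and down to -4.21 for CENPF in KO esiHDAC4 OXPT, and in both #11 groups they do not.

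The promoters of the members share sequence that the choice of genes did not use. Promoter windows from RefSeq (GRCh38.p14, 250 bases before to 50 after the start, 1 window per gene) were found for 37 of the 44. The letters CCAAT occurred on either strand in 31 of 37 (83.8%) against 35.7% of the windows of all 27305 genes in the table. The CHR, searched as TTTGAA or TTCGAA on either strand, occurred in 28 of 37 (75.7%) against 16.3%, and both motifs in 25 of 37 (67.6%) against 6.48%. A CHR beginning no more than 50 bases before the start, or after it, was present in 24 members (64.9%) against 5.05% of all genes. The 23 tested members with both motifs had a median log2 fold change with OXPT of -1.31 over the 4 backgrounds, and the 12 without both a median of -1.19. CENPE, KIF2C and MYBL2 held neither of the searched motifs in this window. Other spellings of the CHR were not searched, so a promoter without these letters is not shown to lack the element.

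The stretches below run from 150 bases before the start to 10 bases from it, 5′ to 3′ on the strand of the gene, with the CCAAT box, on whichever strand it lies, and the CHR in capitals. They are shown because CCNB2, CDC25C and PLK1 have CCAAT boxes followed by a CHR close to the start, because HMMR had the largest OXPT change, because CDC20 fell in every background, and because CCNB1 and KIF2C changed as well without the searched CHR letters. They lie at chr15:59104996-59105155 (CCNB2, + strand), chr5:138331795-138331954 (CDC25C, - strand), chr16:23678739-23678898 (PLK1, +), chr5:163460482-163460641 (HMMR, +), chr1:43358831-43358990 (CDC20, +), chr5:69167000-69167159 (CCNB1, +) and chr1:44739687-44739846 (KIF2C, +).
CCNB2: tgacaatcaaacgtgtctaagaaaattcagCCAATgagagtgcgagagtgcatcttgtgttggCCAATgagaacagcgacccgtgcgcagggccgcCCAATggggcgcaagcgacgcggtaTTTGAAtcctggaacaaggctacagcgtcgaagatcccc
CDC25C: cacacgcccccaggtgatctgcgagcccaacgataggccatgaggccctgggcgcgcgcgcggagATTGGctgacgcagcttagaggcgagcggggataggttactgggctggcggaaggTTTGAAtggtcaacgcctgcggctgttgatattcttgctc
PLK1: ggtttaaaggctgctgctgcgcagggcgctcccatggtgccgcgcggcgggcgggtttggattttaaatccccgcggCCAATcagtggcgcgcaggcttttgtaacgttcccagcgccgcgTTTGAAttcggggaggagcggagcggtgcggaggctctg
HMMR: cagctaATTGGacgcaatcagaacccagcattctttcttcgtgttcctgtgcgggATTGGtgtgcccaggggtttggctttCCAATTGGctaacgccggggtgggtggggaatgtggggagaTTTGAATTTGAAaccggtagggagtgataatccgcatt
CDC20: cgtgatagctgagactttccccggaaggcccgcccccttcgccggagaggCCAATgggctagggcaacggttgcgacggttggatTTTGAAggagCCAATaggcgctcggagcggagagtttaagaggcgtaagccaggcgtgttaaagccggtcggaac
CCNB1: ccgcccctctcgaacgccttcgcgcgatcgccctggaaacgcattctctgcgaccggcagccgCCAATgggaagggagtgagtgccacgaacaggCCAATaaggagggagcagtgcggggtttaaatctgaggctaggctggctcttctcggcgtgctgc
KIF2C: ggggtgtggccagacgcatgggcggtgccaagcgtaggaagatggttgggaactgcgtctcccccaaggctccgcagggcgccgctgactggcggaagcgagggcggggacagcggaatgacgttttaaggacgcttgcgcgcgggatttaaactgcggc
The CHR began at position -29 in CCNB2 and PLK1, at -30 in CDC25C, and at -28 and -22 in HMMR, counting back from -1 just before the start. In CDC20 the order was different, with a CHR at -65 between CCAAT boxes at -100 and -55. A match of letters describes the sequence and does not show that a factor binds there.

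The members were lower with OXPT in every background. In WT, 23 of 42 tested members fell and 0 rose, where 5.6% of all genes tested were called lower and 5.1% higher. A call is an edgeR quasi-likelihood p below 0.05 after Benjamini-Hochberg adjustment together with more than 1.5-fold change. In KO esiCT 21 fell against 5.08% of all genes lower and 6.23% higher. With the HDAC4 pool 26 fell against 5.54% lower and 6.44% higher, and under #11 8 fell against 3.57% lower and 5.94% higher. In these 3 backgrounds 0 members rose, by edgeR or by DESeq2. Median log2 fold changes of the members were -1.40 (WT), -1.40 (esiCT), -1.47 (esiHDAC4) and -0.83 (#11), beside medians of all genes of -0.06, 0.01, 0.02 and -0.0024. All 42 members had a log2 fold change below 0 in WT, KO esiCT and KO esiHDAC4, and 38 of 42 did in KO #11. The OXPT libraries lay below all untreated libraries for 23 members of WT (9.81% of all genes), 30 with esiCT (14.8%), 39 with esiHDAC4 (16.6%) and 19 with #11 (20.1%). Without the number 3 libraries, 41 members were called lower in WT where 11.1% of all genes were, 36 with esiCT (8.33%), 36 with esiHDAC4 (9%) and 27 with #11 (12.1%), and these included every member called with all libraries. Median log2 fold changes of the members were then -1.50 (WT), -1.20 (esiCT), -1.33 (esiHDAC4) and -1.05 (#11). With the replicate number as a block, 31 members were called lower in WT (8.18% of all genes), 32 with esiCT (7.19%), 36 with esiHDAC4 (7.92%) and 9 with #11 (5.61%), again including every member called without it. The block is 1 effect shared by all groups. Same-numbered #11 and esiCT libraries did not deviate together (correlations from -0.252 to 0.128), so the #11 count with the block is not comparable with the others. With only the groups compared in the fit, WT had fewer calls than KO #11. The order of the backgrounds by number of calls therefore depends on the fit. In the mean over the 4 backgrounds, 38 of 42 members fell and 0 rose, where 12.5% of all genes were called lower and 11.4% higher. The 4 members not called there were CDK1, BUB3, PTTG1 and TOP2A. With the block 39 were called where 14.3% of all genes were, the added one being TOP2A. In bulk RNA, fewer cells in G2 and mitosis and less of each transcript per cell cannot be told apart.

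**Figure D2:**
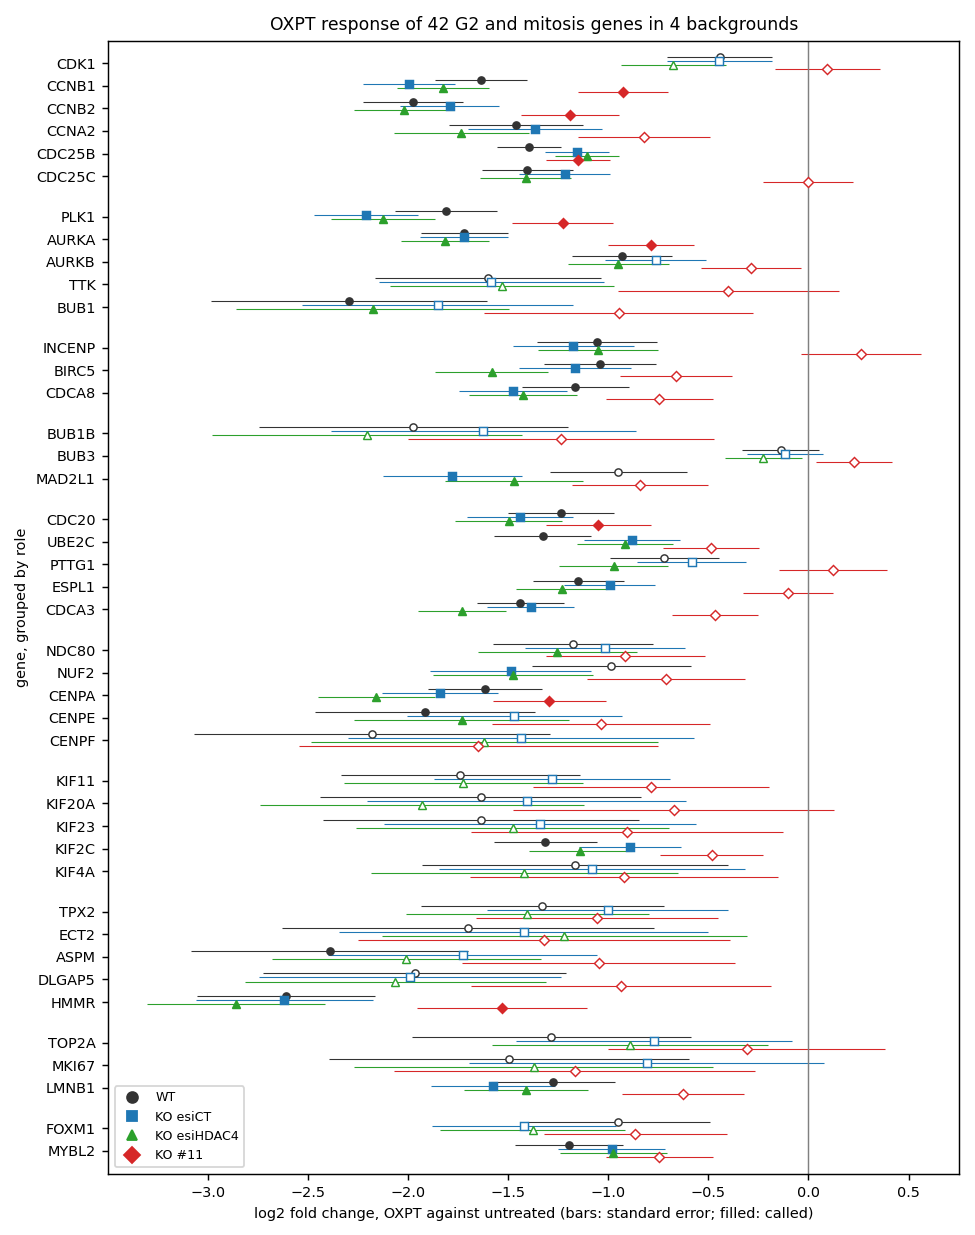
The y axis lists the 42 tested members grouped by role, and the x axis gives the log2 fold change of OXPT against untreated cells with its standard error, in WT (black circles), KO esiCT (blue squares), KO esiHDAC4 (green triangles) and KO #11 (red diamonds). Filled symbols passed the test. Nearly all points lie left of 0, the red diamonds lie nearer to 0 than the others for most genes, and BUB3 stays near 0 throughout.

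In the mean over the 4 backgrounds the CDK1-cyclin engine fell, its kinase the least and short of a call. CCNB1, the B-type cyclin that activates CDK1 at mitotic entry, stood at 265, 276 and 211 CPM in the WT UNT libraries and at 75.3, 77.2 and 89.5 CPM in WT OXPT. In KO esiCT it went from 252, 278 and 225 CPM to 80.3, 70.3 and 38.6 CPM, in KO esiHDAC4 from 191, 271 and 220.1 to 66.5, 68.5 and 57.4, and in KO #11 from 176, 168 and 114 to 75.8, 75.7 and 89.4. The OXPT libraries lay below all untreated libraries of their background in each of the 4 cases, with log2 fold changes of -1.64 ± 0.23 (SE, adjusted p = 8.35e-05), -2.0 ± 0.23 (1.22e-05), -1.82 ± 0.23 (2.79e-05) and -0.93 ± 0.23 (0.0119). CCNB2, the second B-type cyclin, fell to 25.4% of its untreated level in WT (log2 fold change -1.97 ± 0.25) and by 1.79, 2.02 and 1.19 on the log2 scale in KO esiCT, KO esiHDAC4 and KO #11. CCNA2, the A-type cyclin of S phase and G2, fell by 1.46 in WT, 1.37 in KO esiCT and 1.73 in KO esiHDAC4, and its value in KO #11 was -0.82 (adjusted p = 0.129).

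CDC25B, the phosphatase that starts CDK1 activation, fell in all 4 backgrounds. Its untreated libraries lay at 225, 241 and 371 CPM in WT and between 188 and 237 CPM in the 3 KO backgrounds, and its OXPT libraries at 96.1, 109 and 113 CPM in WT and between 82.4 and 106 CPM in the others. No OXPT library reached any untreated one, and the log2 fold changes were -1.40, -1.16, -1.11 and -1.15 in WT, KO esiCT, KO esiHDAC4 and KO #11, each with a standard error of 0.16. CDC25C, the phosphatase that sustains CDK1 activation, fell by 1.41 in WT, 1.22 in KO esiCT and 1.41 in KO esiHDAC4, whereas in KO #11 the untreated libraries were at 13.4, 12.4 and 10.1 CPM and the OXPT libraries at 11.1, 11.9 and 12.8 CPM, which overlap (log2 fold change -0.0034 ± 0.22, adjusted p = 0.997). CDK1 itself had 72.8, 106 and 59.1 CPM in WT UNT and 56.2, 46.5 and 72.5 CPM in WT OXPT, with overlapping libraries and a log2 fold change of -0.44 ± 0.26 (adjusted p = 0.322). In KO esiCT (-0.44) and KO esiHDAC4 (-0.68) CDK1 was not called, although its OXPT libraries lay below all untreated ones. The same held for 14.8% and 16.6% of all genes. In KO #11 the CDK1 libraries overlapped (0.09). Over the 4 backgrounds CDK1 was at -0.37 ± 0.13 (adjusted p = 0.0285), short of the 1.5-fold limit. Without the number 3 libraries it was called in WT (-0.78, edgeR adjusted p = 0.0326) and in no other single background.

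**Figure D3:**
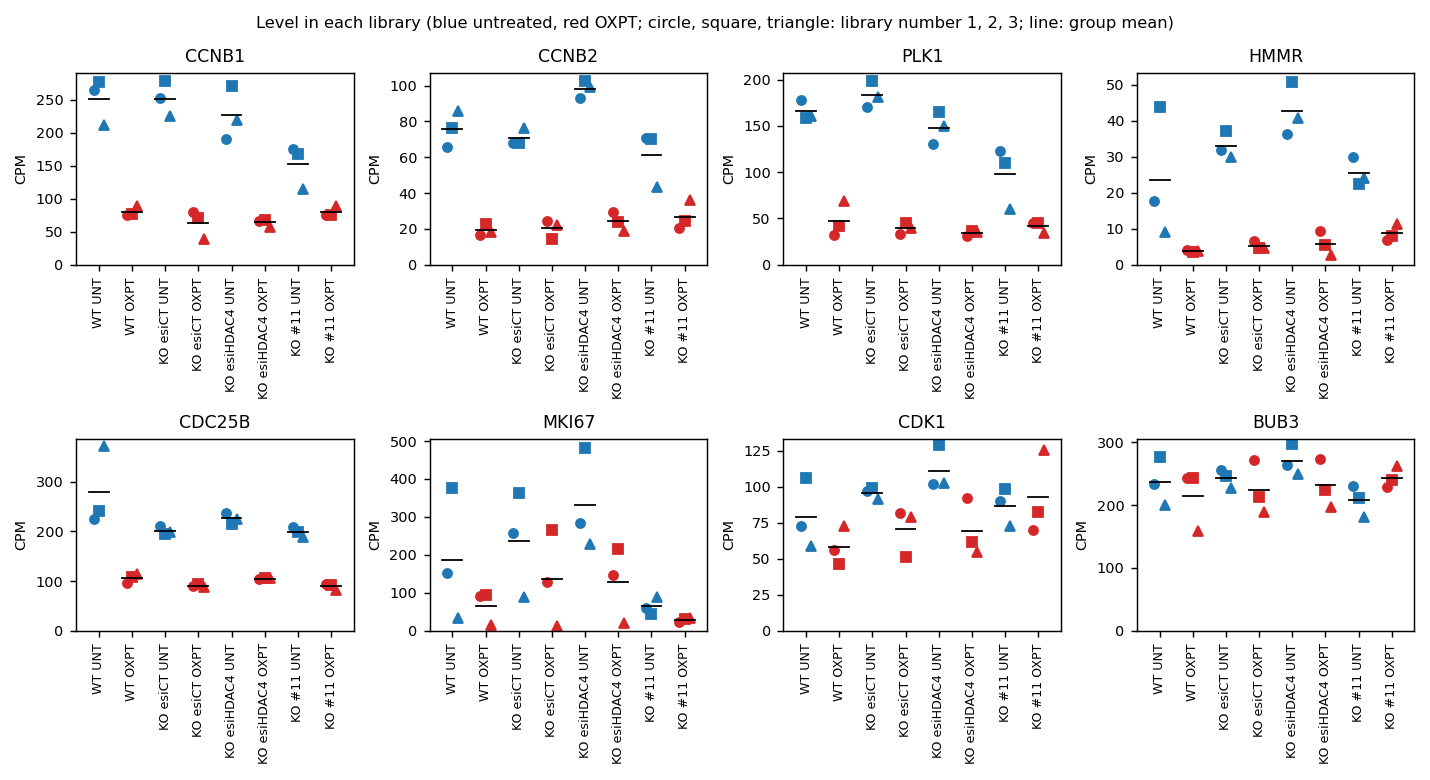
Each panel is a gene, the x axis lists the 8 groups and the y axis gives the level in CPM. Symbols are the libraries (circle, square and triangle for numbers 1, 2 and 3), blue for untreated and red for OXPT, and black lines are group means. CCNB1, CCNB2, PLK1 and CDC25B separate by OXPT in every background, and MKI67 spreads widely with its number 3 libraries low outside the #11 groups. The colours overlap in every background for BUB3. For CDK1 they overlap in WT and KO #11 and separate in KO esiCT and KO esiHDAC4.

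Among the mitotic kinases, PLK1 and AURKA fell in all 4 backgrounds. PLK1, which drives centrosome maturation and mitotic entry, stood at 178, 159 and 161 CPM in WT UNT and at 32.1, 41.5 and 68.4 CPM in WT OXPT, with no overlap. Its log2 fold changes were -1.81 ± 0.26 (WT), -2.21 ± 0.26 (esiCT), -2.12 ± 0.26 (esiHDAC4) and -1.23 ± 0.25 (#11) (adjusted p = 8.55e-05, 1.28e-05, 1.83e-05 and 0.00341). AURKA, the spindle pole kinase, fell by 1.72, 1.72, 1.81 and 0.79 in the same order. AURKB, the kinase of the chromosomal passenger complex, fell in WT (-0.93) and KO esiHDAC4 (-0.95) and was at -0.76 in KO esiCT (adjusted p = 0.0529) and -0.29 in KO #11. TTK and BUB1, the kinases of the spindle checkpoint, fell in the mean over backgrounds by 1.28 and 1.82. The standard errors of TTK (0.55 to 0.56) and BUB1 (0.67 to 0.69) within a background were larger than those of PLK1 (0.25 to 0.26). With the replicate block TTK was called in KO esiCT (-1.60, adjusted p = 0.0272) and KO esiHDAC4 (-1.62, 0.0246), BUB1 also in KO esiCT (-1.98, 0.0133), and AURKB there as well (-0.77, 0.0391).

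The partners of AURKB in the chromosomal passenger complex, INCENP, BIRC5 (survivin) and CDCA8 (borealin), fell in WT, KO esiCT and KO esiHDAC4, by 1.04 to 1.58 on the log2 scale. None of the 3 was called in KO #11, where BIRC5 was at -0.66, CDCA8 at -0.75 and INCENP at 0.26 ± 0.30 (adjusted p = 0.645). The spindle checkpoint split. MAD2L1, the checkpoint protein that inhibits CDC20, fell by 1.78 in KO esiCT and 1.47 in KO esiHDAC4, and was at -0.95 in WT (adjusted p = 0.0795). BUB1B fell in the mean over backgrounds by 1.76 and was called in no single background, with standard errors of 0.76 to 0.77, while the replicate block called it in WT (-1.91, adjusted p = 0.0301), KO esiCT (-1.89, 0.0311) and KO esiHDAC4 (-2.40, 0.00787). BUB3, which also has roles outside mitosis, was at 234, 276 and 200.4 CPM in WT UNT and at 243, 244 and 159 CPM in WT OXPT. Its libraries overlapped in every background and its mean log2 fold change was -0.06 ± 0.10 (adjusted p = 0.608), the smallest of the 42.

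On the anaphase side, CDC20 stood at 364, 333 and 473 CPM in WT UNT and 116, 156 and 225 CPM in WT OXPT, and fell in all 4 backgrounds, by 1.24, 1.44, 1.5 and 1.05. UBE2C, the ubiquitin-conjugating enzyme of the anaphase-promoting complex, ESPL1 (separase), which cuts cohesin, and CDCA3 fell in WT, KO esiCT and KO esiHDAC4. The 3 were not called in KO #11, at -0.49, -0.10 and -0.47. PTTG1 (securin), the inhibitor of separase, fell in KO esiHDAC4 (-0.97, adjusted p = 0.0234) and was at -0.72 in WT, -0.58 in KO esiCT and 0.12 in KO #11. The replicate block called it in WT too (-0.74, adjusted p = 0.0267).

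At the kinetochore, CENPA, the histone variant that marks centromeres, fell in all 4 backgrounds (-1.62, -1.84, -2.16 and -1.29). It had 25.7, 27.7 and 38.4 CPM in WT UNT and 6.92, 6.83 and 16.2 CPM in WT OXPT. NDC80 and NUF2, partners in the complex that holds microtubules, fell in the mean over backgrounds by 1.09 and 1.16, as did the motor CENPE by 1.54 and the large coiled-coil protein CENPF by 1.72. The 5 kinesins fell in that mean by 0.96 to 1.41. With the replicate block NDC80 was also called in WT, KO esiCT and KO #11 (-1.18, -1.08 and -0.86, adjusted p = 0.00315, 0.00552 and 0.0253) and CENPE in KO esiCT (-1.48, 0.0436). Of the 5 kinesins, KIF2C, which depolymerises microtubules, was the one called within single backgrounds, by -1.31 in WT, -0.89 in KO esiCT and -1.14 in KO esiHDAC4. KIF20A shows the spread of the others: its levels were 69.6, 94.8 and 21.6 CPM in WT UNT and 30.0, 27 and 2.78 CPM in WT OXPT, so that the number 3 library lay below its group in both. With the replicate block KIF20A and KIF11 were called in WT, KO esiCT and KO esiHDAC4 (KIF20A -1.81, -1.76 and -2.30, KIF11 -1.70, -1.31 and -1.89), KIF23 in WT (-1.75) and KO esiHDAC4 (-1.76), and KIF4A in KO esiHDAC4 (-1.67), with adjusted p from 0.004 to 0.0494.

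HMMR, a spindle and centrosome protein, had the largest change of the 42 in the mean over backgrounds, -2.41 ± 0.22. In WT it was at 17.7, 43.9 and 9.19 CPM untreated and at 4.05, 3.62 and 3.95 CPM with OXPT, and in KO esiCT at 31.8, 37.3 and 29.9 CPM untreated and 6.67, 4.70 and 4.64 CPM with OXPT. The libraries did not overlap, and the log2 fold changes were -2.61 ± 0.44 (WT), -2.62 ± 0.44 (esiCT), -2.86 ± 0.44 (esiHDAC4) and -1.53 ± 0.42 (#11) (adjusted p = 0.000575, 0.000574, 0.000228 and 0.0254). TPX2, ECT2, ASPM and DLGAP5, which act on spindle assembly, cytokinesis and spindle poles, fell in the mean over backgrounds by 1.20, 1.42, 1.79 and 1.74, and of these ASPM alone was called in a single background (WT, -2.39, adjusted p = 0.0297). With the replicate block DLGAP5 was called in WT, KO esiCT and KO esiHDAC4 (-1.92, -2.11 and -2.27), TPX2 in WT (-1.47) and KO esiHDAC4 (-1.58), and ASPM also in KO esiCT (-1.82) and KO esiHDAC4 (-2.11), with adjusted p from 0.0132 to 0.0469. LMNB1 (lamin B1), a protein of the nuclear lamina, fell in WT, KO esiCT and KO esiHDAC4 by 1.27, 1.58 and 1.41. MKI67, the Ki-67 proliferation antigen, was at 152, 375 and 34.7 CPM in WT UNT and 91.3, 92.8 and 15 CPM in WT OXPT, was called in no single background, and fell by 1.21 ± 0.45 in the mean (adjusted p = 0.0342). TOP2A, the topoisomerase that untangles sister chromatids, was at -0.81 ± 0.35 in that mean (adjusted p = 0.0632) and was not called, and with the block it was at -0.94 (adjusted p = 0.00768). The transcription factors MYBL2 (B-MYB) and FOXM1, known as activators of many genes of this programme, fell in the mean by 0.98 and 1.15, and MYBL2 also in WT, KO esiCT and KO esiHDAC4. With the block FOXM1 was called in KO esiCT (-1.565, adjusted p = 0.0139) and KO esiHDAC4 (-1.39, 0.0227).

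Calls within a background were more numerous among the shorter members. Of the 21 members at or below 2928 bases, calls numbered 16 (WT), 16 (esiCT), 19 (esiHDAC4) and 6 (#11). Of the 21 longer members 7, 5, 7 and 2 were called. The median log2 fold changes of the shorter and longer members were -1.31 and -1.60 in WT and -1.39 and -1.41 in KO esiCT, and their median standard errors were 0.26 and 0.61 in WT. With number 3 left out, 20, 16, 16 and 11 of the longer members were called.

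Levels of the members were compared per kilobase of exon. In KO esiCT UNT the highest member was CDC20 at 195 ± 19.997 CPM per kb (SD, n = 3), then UBE2C at 129.8 ± 4.44 and CCNB1 at 104 ± 10.9, and the lowest tested were CENPE at 1.93 ± 0.912 and ASPM at 1.52 ± 0.485. CDK1 was at 24.6 ± 1.03 CPM per kb, close to CCNB2 at 25.7 ± 1.71, with only CDCA8 between them in the order of the members, and the difference was within their spread. In KO esiCT OXPT the levels per kb of CDK1 and CCNB2 were 18.0 ± 4.33 and 7.41 ± 1.885 CPM per kb.

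The other genes of the pathway were read from lists named beside the members. In the mean over backgrounds 12.5% of all genes tested were called lower and 11.4% higher. These shares belong beside each count in this paragraph and the next. A count near them is not read as a result about its list. Of 73 tested mitosis genes outside the 44, 57 fell and 0 rose in the mean over backgrounds (median log2 fold change -1.03), with DEPDC1 (-2.28), GAS2L3 (-2.03) and KIF14 (-2.01) the largest. Of 16 subunits and regulators of the anaphase-promoting complex 1 fell, its inhibitor FBXO5 (-1.21). Of 10 cohesin genes 3 fell, STAG1 (-1.14), RAD21 (-0.97) and SMC1A (-0.74). Of 33 S phase replication genes 19 fell and 1 rose, with a median of -0.64. The replication factors MCM6 (-1.24) and POLA1 (-1.23) were the lowest, and PCNA, a p53 target as well as the sliding clamp, was the 1 that rose (1.20). Of 13 housekeeping genes 0 fell and 2 rose, SDHA (0.81) and ACTB (0.59), with a median of 0.04.

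The list of 12 p53 targets held regulators of G2 and of cyclin kinases, and also MDM2, FAS and ZMAT3, which have other roles. Of the 12, 9 rose and 1, GTSE1, fell (-1.32), with a median log2 fold change of 1.67. CDKN1A (p21) was at 381, 288 and 1221 CPM in WT UNT and at 3099, 3121 and 4821 CPM in WT OXPT. In KO esiCT it went from 319.8, 303 and 390.4 CPM to 2879, 2542 and 3752 CPM, and the mean log2 fold change over backgrounds was 2.84 ± 0.19 (adjusted p = 3.76e-10). The untreated WT library number 3 had the highest untreated CDKN1A level, and its 12 p53 targets summed to 3101 CPM against 1119 and 1128 in the other two. MDM2, the ubiquitin ligase of p53, rose by 2.27, FAS by 2.54 and BTG2 by 2.47. Among 17 tested genes of DREAM and MuvB control 5 fell, among them RBL1 (p107, -1.14), E2F8 (-0.996) and RBBP4 (-0.72). E2F7, a repressor that p53 induces, was at 0.52 ± 0.32 (adjusted p = 0.199) and RBL2 (p130) at -0.58 ± 0.33 (adjusted p = 0.157). Epithelial keratins were higher with OXPT as well, with KRT18 at 1.20, KRT8 at 1.15 and KRT19 at 0.99 among 4 of 6 tested markers that rose.

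**Figure D4:**
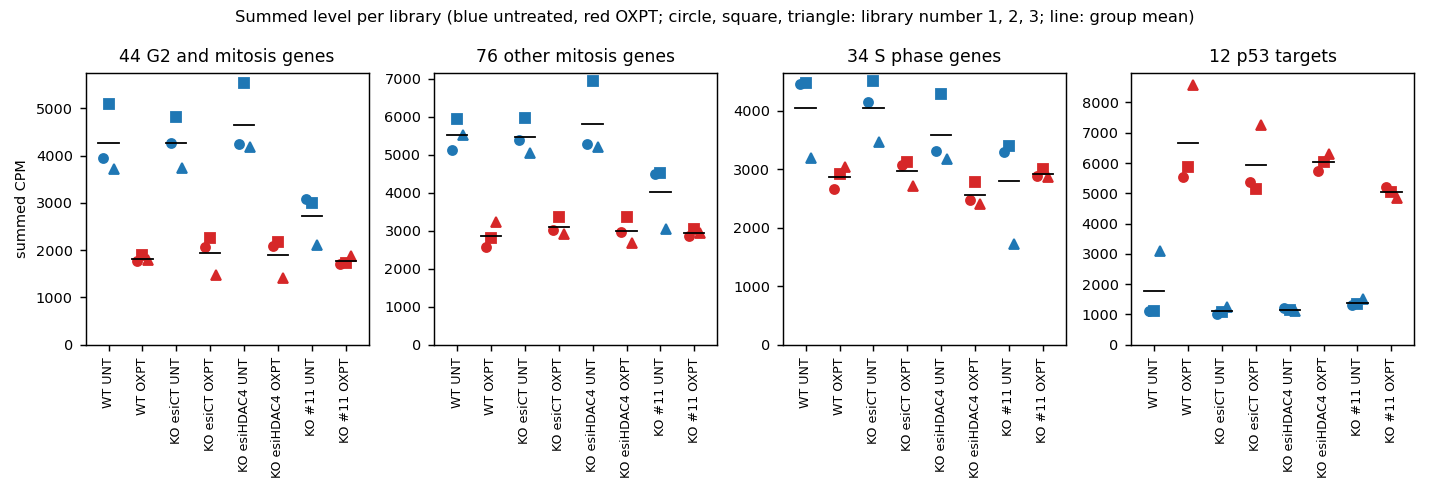
Summed CPM per library for 4 gene lists, with the 8 groups on the x axis, libraries as circles, squares and triangles (numbers 1, 2 and 3), blue for untreated and red for OXPT, and lines at group means. The 44 members sum to 2101 to 5536 CPM in untreated and 1404 to 2257 CPM in OXPT libraries, and the 12 p53 targets to 1000.2 to 3101 and 4861 to 8587 CPM.

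Loss of FBXW7 gave no call among the members, and few calls among all genes tested, in fits without the replicate block. Untreated, 0 of 42 were called between KO esiCT and WT where 0.291% of all genes were, 1 had an unadjusted p under 0.05, as had 5.74% of all genes, and DESeq2 called 0. That gene, CDC25B, was at -0.47 (edgeR adjusted p = 0.452), with 212, 194 and 198 CPM in KO esiCT against 225, 241 and 371 CPM in WT. With OXPT 0 were called by either tool, where edgeR called 0.138% of all genes, and 0 had an unadjusted p under 0.05. The smallest p was that of MAD2L1 (-0.66). The difference between the OXPT responses of KO esiCT and WT called 0 members and 0 genes, with a median over members of 0.15, and 0 members had an unadjusted p under 0.05 or a DESeq2 call. MAD2L1 was again the member with the smallest p (-0.83 ± 0.48).

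In fits without the replicate block, the HDAC4 esiRNA also gave no call among the members, and almost none among all genes tested. Untreated, 0 of 42 were called between KO esiHDAC4 and KO esiCT by edgeR or DESeq2, with 0.00809% of all genes called by edgeR, 0 members at an unadjusted p under 0.05 and a median of 0.20. CCNB2 had the smallest p, at 93.3, 102 and 99.1 CPM with esiHDAC4 against 68.2, 67.9 and 76.2 CPM with esiCT (log2 fold change 0.47 ± 0.24). Its 3 esiHDAC4 libraries lay above the 3 esiCT libraries, as did those of 9.61% of all genes. With OXPT 0 members and 0 genes were called by edgeR, DESeq2 called 0 members, 0 members had an unadjusted p under 0.05, and BIRC5 had the smallest p (-0.45). The difference between the OXPT responses with esiHDAC4 and esiCT called 0 members and 0 genes, with a median over members of -0.19. By an unadjusted p under 0.05 and by DESeq2 the count was 0 as well, and CDCA3 (-0.34) had the smallest p.

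The degrader #11 went with lower levels of the members in untreated KO cells, without a call in the fit of all libraries. Against KO esiCT UNT, 41 of 42 members had a log2 fold change below 0, with a median of -0.72 beside -0.0034 for all genes, of which 6230 of 12356 were below 0. No member was called by edgeR, where 0.51% of all genes were called and 0.129% called lower, while 16 members had an unadjusted p under 0.05, as had 13.8% of all genes. DESeq2 called 6 (CCNB1, CDC25C, CDCA3, ESPL1, INCENP and PLK1) where it called 1.41% of all genes lower. With number 3 left out edgeR called 17 members where 7.51% of all genes were called lower, and both groups alone in the fit gave 6 where 1.57% were. The smallest p was that of ESPL1, which had 44.4, 40.1 and 24.9 CPM with #11 against 64.9, 72.2 and 75.3 CPM with esiCT (log2 fold change -0.96 ± 0.23, adjusted p = 0.0577). INCENP was at 28.7, 29.4 and 22.5 CPM against 48.0, 56.7 and 68.9 CPM (-1.11 ± 0.30, adjusted p = 0.0908), and CCNB1 at 176, 168 and 114 CPM against 252, 278 and 225 CPM (-0.72 ± 0.22, adjusted p = 0.129). The #11 libraries lay below all esiCT libraries for 16 members, among them these 3, and for 14.8% of all genes.

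With number 3 left out, 13 of the 17 members called lower under #11 were among the 21 longer ones, among them CENPF (-2.64), MKI67 (-2.56) and TOP2A (-2.37), and PLK1 (-0.65) and CCNB1 (-0.62) were called among the shorter. MKI67 was at 59.7, 44.7 and 88.7 CPM in KO #11 UNT against 259, 362 and 89.2 CPM in KO esiCT UNT, so that the number 3 libraries of both groups were at the same level. The number 3 library of KO #11 UNT also had the lowest summed level of the members among untreated libraries, 2101 CPM, and the lowest sum of the 34 S phase genes, 1716 CPM.

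**Figure D5:**
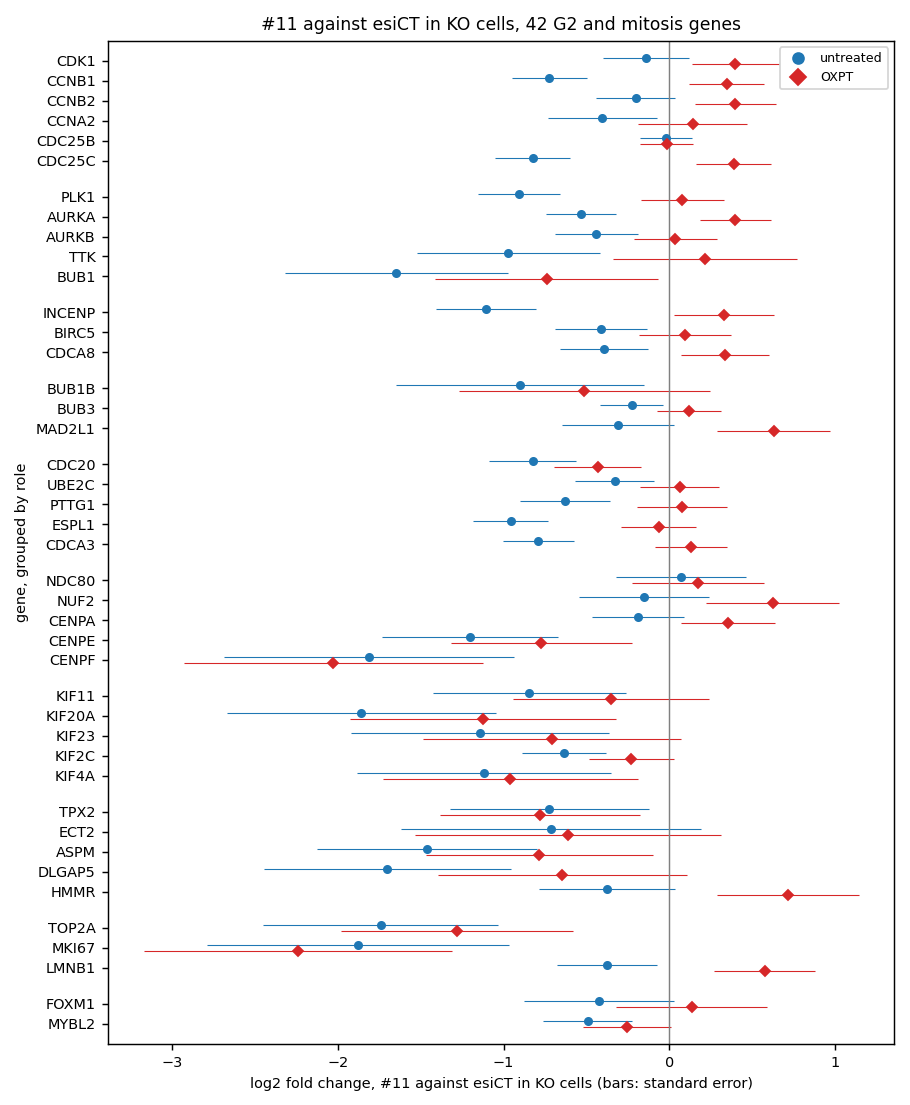
The y axis lists the 42 tested members grouped by role, and the x axis gives the log2 fold change of #11 against esiCT in KO cells with its standard error, untreated (blue circles) and with OXPT (red diamonds). Untreated, 41 of 42 points lie below 0, and with OXPT they lie on both sides of it.

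With OXPT the members of both groups had summed levels of 1709 to 1866 CPM under #11 and 1474 to 2257 CPM under esiCT. In that comparison 19 members were below 0 and 23 above it, with a median of 0.07, 0 were called where edgeR called 0.121% of all genes, and 2 had an unadjusted p under 0.05, as had 10.2% of all genes. MKI67 had the smallest p (-2.24), with 21.8, 30.5 and 33.6 CPM under #11 against 128, 265 and 13.0 CPM under esiCT. DESeq2 called 0, and with number 3 left out 10 were called lower where 7.05% of all genes were, among them MKI67 (-2.95), CENPF (-2.63) and ECT2 (-1.88). The difference between the OXPT responses with #11 and esiCT was above 0 for 39 of 42 members and for 5957 of 12356 genes, with a median of 0.54, and called 0 members and 0 genes. At an unadjusted p under 0.05 stood 8 members and 6.98% of all genes, with CDC25C at the smallest p (1.21 ± 0.32, edgeR adjusted p = 0.371), and DESeq2 called 0. With number 3 left out, this difference was smaller, with a median of 0.24 over the members. Then 12 of 42 members were below 0 and 0 were called.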

How the data were processed

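The authors deposited 1 table of raw gene counts per library, as unstranded, forward and reverse columns, which the submitters' processing notes place after Trimmomatic 0.39 and STAR 2.7.11a on hg38. The annotation release was not given in the sources used here, and the article describes another route (salmon and DESeq2) that the files do not hold. Unstranded counts were used because reverse and forward totals were nearly equal (ratio 1.00 to 1.02). Unassigned summary lines stayed out of library sizes: reads without a feature were 2.58% to 5.79% and ambiguous reads 10.6% to 12.2%.

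Genes with a mean of at least 64 counts in at least 1 group entered edgeR 4.0.16 (R 4.3.3), with TMM factors of 0.789 to 1.1 and 1 quasi-likelihood model over 8 groups and 24 libraries. A gene was called where its p, adjusted with Benjamini-Hochberg across the 12356 genes, was below 0.05 and its change exceeded 1.5-fold. Standard errors were derived from the fold change and the F statistic. DESeq2 1.42.0, other normalizations, filters, strand, a replicate block, the groups compared alone, and libraries left out were alternatives. The model was tested on simulated data.

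Same-numbered libraries deviated together across OXPT and untreated groups (correlations from 0.176 to 0.688, each over 0.1), so the numbers were read as pairing them, while for #11 against esiCT they did not (from -0.252 to 0.128). They also did so for KO esiCT against WT (0.113 to 0.654) and for esiHDAC4 against esiCT (0.279 to 0.788). The main fit has no block and does not use this pairing. The absence of calls stated for KO against WT and for esiHDAC4 comes from fits without the block. No 2 libraries of a group held identical values. Intervals and counts cover counting and library spread only.

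Members and lists were chosen with earlier results of these data known. Every member was described by role. From each other list the 3 called genes with the largest change in the mean over backgrounds were named, plus CDKN1A, MDM2, E2F7, RBL1 and RBL2, and in the other comparisons each called member or else the one with the smallest p. GTSE1 and the further members named under #11 were chosen after their values were seen.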

Additional observations from a re-analysis of the deposited data

Results flagged for a closer look

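INCENP was flagged by a rule on signs, under which all same-numbered OXPT differences had to be opposite between the backgrounds compared. With OXPT it went from 48.0, 56.7 and 68.9 CPM to 32.6, 27.2 and 16.8 CPM in KO esiCT, so that each same-numbered difference was below 0, and from 28.7, 29.4 and 22.5 CPM to 28.8, 37.5 and 30.3 CPM in KO #11, where each was above 0. The difference between both responses was 1.44 ± 0.42 on the log2 scale, with an unadjusted p of 0.00292 and an adjusted p of 0.381 in the edgeR quasi-likelihood test, so it did not pass the threshold. The rule does not weigh the size of a difference. In the same test CDC25C had a smaller unadjusted p (0.00104), and 0 genes were called.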

How the results depend on the processing

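For the mean over backgrounds the alternatives run gave from 36 calls of 39 tested (a mean of 64 counts in every group) to 40 of 44 (no count filter). Within backgrounds, no count filter gave 39 calls in WT, 37 in KO esiCT and 40 in KO esiHDAC4. The groups compared alone gave 4 in WT and 23 in KO #11. Number 3 left out of every group gave 41 in WT, 36 in KO esiCT and 27 in KO #11, and the replicate block, pairing libraries by number, gave 32 in KO esiCT. For #11 against esiCT, untreated, the main count of 0 became 6 with DESeq2, 1 with RLE or upper quartile normalization, 12 with no filter, 5 with the block, 6 with the groups alone and 17 without number 3. With OXPT it became 4 with no filter and 10 without number 3. KO against WT with OXPT gave 1 with no filter. The cause was not tested. These counts show how far the calls moved with the setting. Where no share of all genes is given for a setting, its count is not read as a result about the members.

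Leaving out 1 library at a time gave 17 to 29 calls in WT, 17 to 26 in KO esiCT, 17 to 32 in KO esiHDAC4 (17 without KO esiHDAC4 UNT 2), 4 to 12 in KO #11 (4 without UNT 1, UNT 2 or OXPT 2, 5 without OXPT 1, 12 without UNT 3), 37 to 39 in the mean and 0 to 3 for #11 against esiCT untreated (3 without WT UNT 3). The other comparisons stayed at 0 to 0. Medians ran from -1.55 to -1.05 in WT, -1.58 to -1.11 in KO esiCT, -1.62 to -1.30 in KO esiHDAC4 and -0.93 to -0.70 in KO #11.

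Directions that turned belonged to values near 0. BUB3 in WT ran from -0.2455 to 0.0387 (without WT OXPT 3) as single libraries were left out. In KO #11, CDC25C became 0.0086 with the block, 0.0574 without UNT 1, 0.0124 without UNT 2 and 0.0255 without OXPT 1 (lowest -0.1376), PTTG1 became -0.1721 without number 3 in every group and -0.0506 without UNT 3 (highest 0.2310), CDK1 became -0.3524 without number 3, -0.0471 without UNT 3 and -0.1887 without OXPT 3 (highest 0.2393), and ESPL1 became 0.0360 without UNT 1 (lowest -0.3418).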

Other observations

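The 12 WT libraries whose labels conflict on OXPT were read without a group. In these libraries CCNB1 ranged from 31.8 to 261 CPM (median 72.7), CCNB2 from 9.01 to 107 CPM (median 25.8) and PLK1 from 19.8 to 175 CPM (median 51.1).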
